A study of Glycine max with 4 samples.

Results

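Facing and overlapping antisense start pairs are places where a start region on the plus strand and a start region on the minus strand of soybean chromosomes lie across from each other. Start regions were made by joining the tag clusters listed for shoot and for root when they lay on the same sequence and strand at most 100 bp apart. A pair was overlapping when its 2 regions shared at least 1 base, whatever the order of their most used bases. It was facing when the minus-strand region began 1 to 2000 bp after the end of the plus-strand region with no other start region touching the bases between them. There were 418 such pairs, 46 overlapping and 372 facing. They used 825 of 23330 start regions, or 3.54%, and 9 of these regions belonged to more than 1 pair. The choice used positions only and no level or tissue difference beyond what put a cluster in the lists.

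The material was 2 nanoCAGE libraries of shoots and 2 of roots from Williams 82, a cultivar of soybean (Glycine max) that is widely used in genome work. All plants were 2 weeks old and were grown in a cycle of 12 h light and 12 h dark, the white light set to 300 µmol m-2 s-1. In nanoCAGE a short tag is read from the capped end of an RNA and taken as the base where that transcript starts. The labels number the libraries 1 and 2 in each tissue and do not say whether they came from separate plants or from pools, so the p-values reflect how these 4 libraries spread, in which technical spread may be all there is.

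RNA polymerases that start from facing promoters travel toward each other and transcribe the same stretch of DNA from both strands. Plants are known for transcripts made in this way, called natural antisense transcripts. A well studied case in Arabidopsis is COOLAIR, a set of antisense RNAs that begin beyond the end of the flowering repressor gene FLC. Antisense RNA can affect the sense gene through collision of polymerases, through changes in chromatin or through small RNAs cut from double-stranded RNA. Divergent starts, which point away from each other, need share no transcribed sequence.

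The count table held 901261 and 655935 tags in the shoot libraries and 1000476 and 874004 in the root libraries. It reached from sequence 1 into sequence 13, of 20 in the assembly, and took in 277 of the 418 pairs. A second table gave 1 pooled value per tissue in TPM for all 20 sequences, where the smallest value was 0.329 in shoot and 0.286 in root. Log2 levels correlated across regions at r = 0.947 between the shoot libraries and 0.958 between the root libraries, against 0.285 to 0.365 between tissues. Positions are given by sequence number and base only: no annotation and no base sequence of the assembly in the files was used here. The tissue labels were therefore not set against marker genes. Soybean carries many duplicated genes, and how tags of near-identical copies were assigned is unknown.

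Facing regions lay closer together than divergent ones and about as close as same-strand neighbours. The median distance between the nearer ends of the 2 regions was 487.5 bp in the 372 facing pairs (quartiles 164 and 910.5 bp), against 1035 bp in 365 divergent pairs found with the same limit (quartiles 492 and 1491 bp). Same-strand neighbours, which by construction begin beyond 100 bp, also had a median of 487.5 bp. Within 100 bp there were 58 facing and 23 divergent pairs, and beyond 1000 bp there were 82 facing and 189 divergent pairs. Facing pairs became rarer with distance, while divergent pairs stayed at 12 to 25 per 100 bp. Measured between the most used base of each region, the median distance of facing pairs was 498.5 bp, and 92 pairs were under 200 bp apart. The bases between facing regions held further tags on both strands in 236 pairs, on 1 strand in 132 and on neither in 4, with a median of 3.45 TPM summed over shoot and root.

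**Figure D1:**
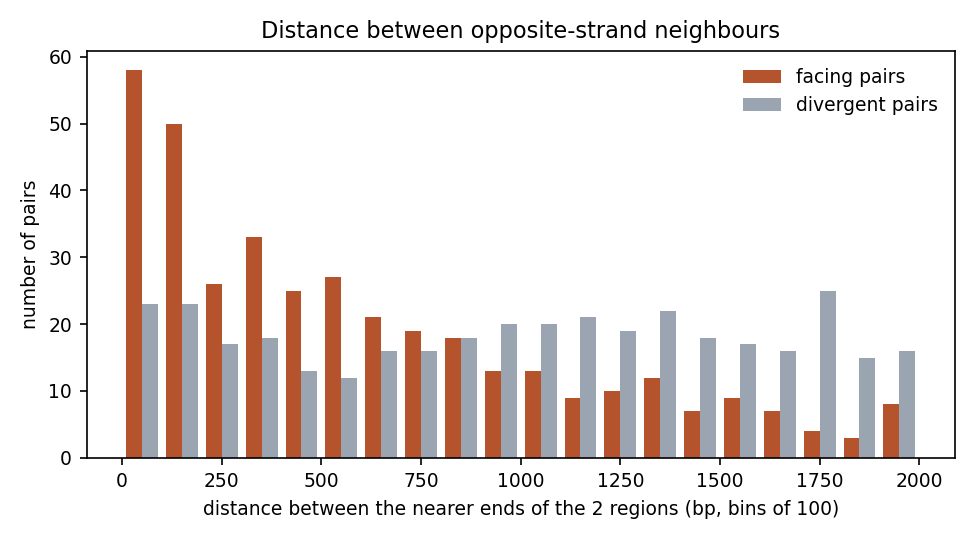
Number of facing pairs (left bar of each bin) and divergent pairs (right bar) by the distance in bp between the nearer ends of the 2 regions, in bins of 100 bp over all 20 sequences. Facing pairs are most frequent in the first bin, with 58 against 23 divergent pairs, and thin out toward 2000 bp.

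Pairs on either side of the 2000 bp limit are given as a description. The widest facing pair, on sequence 9, joined the plus strand at 4125769, with 0 TPM in shoot and 1.43 TPM in root, to the minus strand from 4127769 to 4127807, which had 40.8 TPM in shoot and 171.7 TPM in root. The next widest, 1970 bp apart on sequence 1, joined plus-strand 2768023 to 2768031, at 0 TPM in shoot and 6.02 TPM in root, to minus-strand 2770001 to 2770007, at 11.02 TPM in shoot and 89.7 TPM in root. The first candidates left out were 2081 bp apart on sequence 11 and 2082 bp apart on sequence 12. Their minus-strand regions had 1.31 TPM in shoot with 0 TPM in root, and 2.60 TPM in shoot with 4.01 TPM in root.

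Most pairs joined a strong region to a faint one, and the contrast was steepest in overlapping pairs. The TPM of the stronger region, summed over shoot and root, was a median of 141.7 times that of the weaker in overlapping pairs (quartiles 36.2 and 242) and 4.94 times in facing pairs (quartiles 2.21 and 20.7), against 4.28 times in divergent pairs. The stronger region had a median of 433 TPM in overlapping pairs, 15.2 TPM in facing pairs and 23.7 TPM in divergent pairs. The weaker region had a median of 3.24, 2.09 and 3.35 TPM in the same order of classes. Among pairs with both regions at 5 TPM or more, a choice that removes the faintest partners, the medians of the ratio were 44.0 in overlapping and 3.16 in facing pairs.

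The regions were within 2-fold of each other in 79 of the 372 facing pairs (21.2%), a share near the 25.5% of divergent pairs and the 25.3% of same-strand neighbours. Both regions reached 5 TPM in 63 facing pairs (16.9%), against 147 divergent pairs (40.3%) and 828 of 2818 same-strand neighbours (29.4%). The plus-strand region was the stronger in 183 facing pairs and the minus-strand region in 187. The weaker region was a single base in 310 facing pairs (83.3%), in 35 overlapping pairs (76.1%) and in 229 divergent pairs (62.7%). Of all start regions, 40.4% were a single base.

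**Figure D2:**
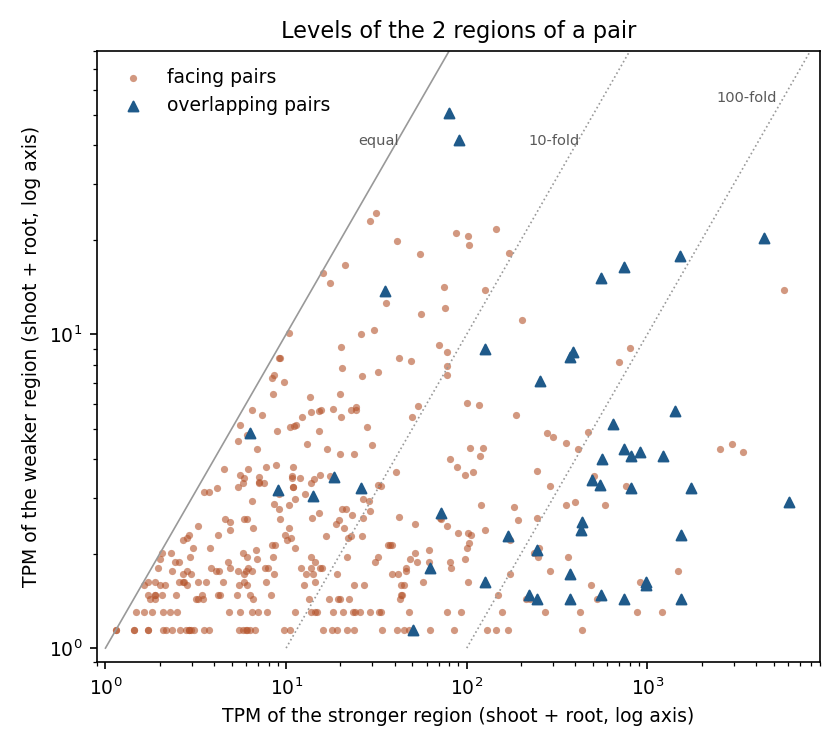
TPM of the weaker region against TPM of the stronger region of each pair, summed over shoot and root, on log axes, for 46 overlapping pairs (triangles) and 372 facing pairs (dots). Lines mark equal, 10-fold and 100-fold levels, and 26 overlapping and 31 facing pairs lie beyond 100-fold.

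Facing pairs within 100 bp stood between the overlapping pairs and the rest. Their stronger region had a median of 35.9 TPM and was 13.5 times the weaker, against 11.9 TPM and 3.92 times at 101 to 500 bp, 12.8 TPM and 3.68 times at 501 to 1000 bp, and 18.9 TPM and 7.19 times beyond 1000 bp. Over 100-fold contrasts were seen in 12 of the 58 closest facing pairs. The strongest facing pairs, picked after their values were seen, had this form. On sequence 17 the plus-strand region at 11386948 to 11387081 had 90.1 TPM in shoot and 5584 TPM in root, and 52 bp beyond it the minus-strand base 11387133 had 0.329 TPM in shoot and 13.5 TPM in root. On sequence 8 the plus-strand region from 13954724 to 13954895 had 6305 and 4422 tags in shoot and 38 and 24 in root. The minus-strand base 13954952, 57 bp away, held 10 and 3 tags in shoot and 0 and 0 in root. In both pairs the faint start was higher in the tissue where the strong start was higher.

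In overlapping pairs the faint start lay inside a strong and broad region. In 43 of the 46 pairs the weaker region was wholly inside the stronger, and in 35 it was a single base. The stronger region was a median of 374 bp wide, reached 1098 bp, and had 100 TPM or more in 35 pairs. Width and level went together with the presence of a partner. Regions of 400 bp or more numbered 55, and 14 of them (25.5%) were the stronger region of an overlapping pair, with 60.7 pairs per 100 kb spanned. At 200 to 399 bp the density was 10.5 pairs per 100 kb, at 100 to 199 bp it was 3.07, and below 100 bp it was 1.54. The median level was 492 TPM in the widest class and 106, 47.3 and 6.41 TPM in the narrower ones, so width and level cannot be told apart here. Among the 55 widest regions, those with a partner had a median of 653 TPM (244 to 6049), against 296 TPM (41.6 to 9928) in the other 41.

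The antisense start had no fixed place relative to the main sense start. It lay downstream of the most used base of the stronger region in 31 pairs, at a median of 92 bp and up to 1005 bp, and upstream of it in 14 pairs, at a median of 44.5 bp. In 1 pair both strands had the same most used base. Where the antisense start lay upstream, the main starts pointed away from each other, as in divergent pairs. By their main starts, 14 of the 46 overlapping pairs were thus divergent, although their regions shared bases. At the antisense start the stronger strand itself had a tag in 24 of the 46 pairs. Over all 46 pairs, with those lacking such a tag counted as 0, that base held a median of 0.0358% of the stronger region's TPM.

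**Figure D3:**
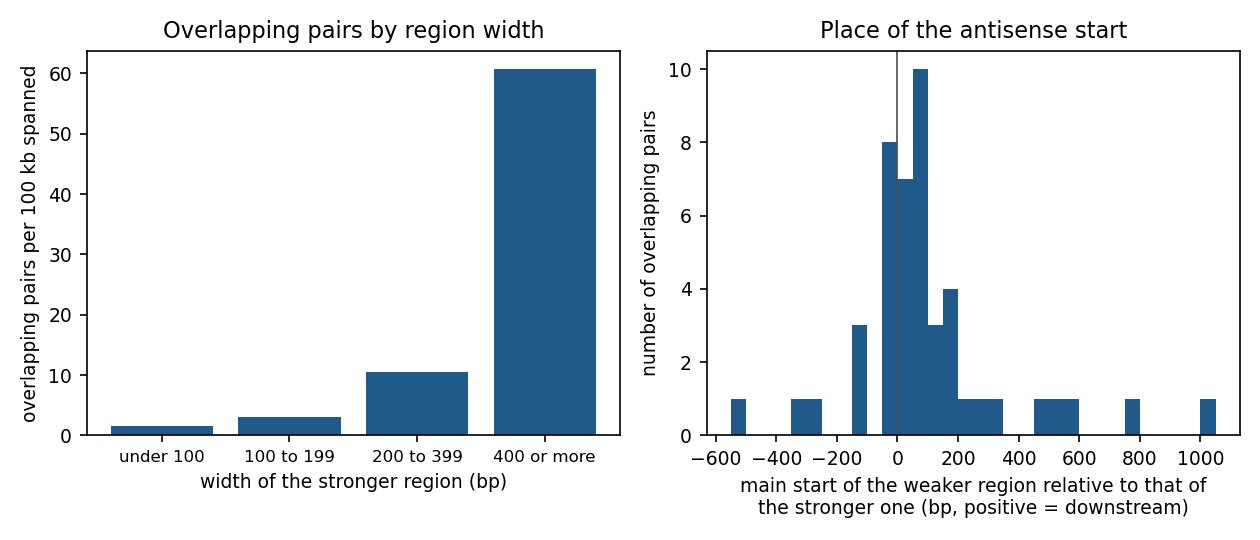
Left, overlapping pairs per 100 kb spanned by regions of 4 width classes, from 1.54 below 100 bp to 60.7 at 400 bp or more. Right, distance in bp of the weaker region's most used base from that of the stronger region in 46 overlapping pairs, counted along the stronger strand, with 31 downstream (positive) and 14 upstream.

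Antisense tags inside strong regions were rare outside these pairs. In the 1514 covered regions of 100 TPM or more that were not the stronger region of an overlapping pair, antisense tags made up 0.00640% and 0.00745% of tags in the shoot libraries and 0.00758% and 0.00772% in the root libraries. The widest 95% Wilson interval was 0.00528% to 0.0105%, in shoot replicate 2. In the 20 covered stronger regions of that level, antisense tags made up 0.363% (0.303 to 0.436) and 0.475% (0.395 to 0.573) in the shoot libraries and 1.31% (1.12 to 1.52) and 1.62% (1.39 to 1.89) in the root libraries. Tags were summed over the regions, so regions with many tags weigh most. Some of the 20 had many tags in 1 tissue and few in the other, so these shares do not compare the tissues within a region. The second set was chosen for having an antisense cluster, so the difference between the sets is a description. Tags amplified by PCR and not marked per molecule are not independent, so all intervals and floors given here express counting error alone.

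Some broad regions had several antisense partners. On sequence 2 the minus-strand region at 7249831 to 7250928, with 501 start positions, had 22.3 TPM in shoot and 720.7 TPM in root and overlapped 3 plus-strand regions. Those lay at 0 to 0.329 TPM in shoot and 1.43 to 16.1 TPM in root. On sequence 16 the minus-strand region at 35029949 to 35030567, with 136.5 TPM in shoot and 236 TPM in root, also had 3 partners, at 0 to 1.31 TPM in shoot and 1.43 to 7.16 TPM in root. The other regions with more than 1 partner had 2 pairs each, at least 1 of them overlapping.

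In each of the 5 overlapping pairs whose weaker region was strongest in counts, both strands were higher in the same tissue. They were picked by CPM, and in 4 of them the weaker region had at most 1 tag in the other tissue, so a tissue difference was nearly fixed by the choice and the tests below describe each region without supporting joint movement. On sequence 1 the plus-strand region from 47966432 to 47966806 had 7141 and 7005 tags in shoot and 8 and 12 in root. The minus-strand base 47966461 inside it, 23 bp downstream of the main start, held 29 and 34 tags in shoot and 0 and 0 in root. Both strands were high in shoot with no overlap between the tissues. Taking 3 counts over both root libraries as the floor, shoot exceeded root on the minus strand at least 32.3-fold (edgeR quasi-likelihood, Benjamini-Hochberg adjusted p 8.38e-05). On sequence 11 the plus-strand region at 7487806 to 7488809 held 2709 and 2006 tags in shoot and 3 and 2 in root. The minus-strand region at 7488798 to 7488864, across its downstream end, held 29 and 26 tags in shoot and none in root, where shoot exceeded root at least 28.2-fold (adjusted p 7.35e-05, edgeR). In these 2 pairs the minus strand made up 0.404% to 1.28% of the tags of the shoot libraries.

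The other three of these pairs were less unequal in at least 1 tissue or were higher in root. On sequence 13 the plus-strand region at 1668112 to 1668443 held 5 and 1 tags in shoot and 244 and 66 in root, and the minus-strand region at 1668243 to 1668662 held 0 and 1 tags in shoot and 106 and 38 in root. Both strands were thus high in root, with log2 differences of -5.00 ± 0.73 and -6.26 ± 0.90 (SE; adjusted p 0.000217 and 0.00021, edgeR). With 1 shoot tag, the counted root over shoot ratio of the minus strand was 93.5 with a 95% counting interval of 16.5 to 3720. This pair was the closest to balance of the 5, its stronger region at 2.18 times the weaker. On sequence 5 the plus-strand region at 37959816 to 37960101 averaged 77.1 ± 38.9 CPM (counts scaled by TMM library size) in shoot and 15.3 ± 8.2 CPM in root (SD, n = 2 each), and the minus-strand base 37959890 averaged 26.4 ± 1.8 CPM in shoot and 7.31 ± 1.41 CPM in root. Both strands were called higher in shoot, by log2 differences of 2.27 ± 0.50 and 1.84 ± 0.47 (adjusted p 0.00295 and 0.00677, edgeR), and over all alternatives run the adjusted p reached 0.0156 and 0.121. On sequence 2 the strongest partner of the 1098 bp region, at 7250299 to 7250443 on the plus strand, held 1 and 0 tags in shoot and 30 and 26 in root. The minus-strand region itself held 62 and 6 tags in shoot and 1526 and 988 in root. Scaled, the shoot libraries stood at 90.4 and 12.5 CPM, apart from each other but both below the root libraries, and both strands were called higher in root (adjusted p 0.000366 and 0.000104, edgeR).

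Of 547 member regions in the part with counts, 188 had enough tags to be tested, 169 of them as the stronger and 19 as the weaker of their pair. In overlapping pairs 30 regions were tested, 11 called higher in shoot and 11 higher in root. In facing pairs 160 were tested, 57 called higher in shoot and 34 higher in root (56.9% in either direction). Of all 7183 regions tested, 52.9% were called, 29.5% higher in shoot and 23.4% higher in root, so the facing members lay close to this background. The median log2 difference was 0.32 in tested facing regions and -0.12 in tested overlapping regions, against 0.06 in all regions tested. In tested regions of divergent pairs and same-strand neighbours it was 0.29 and 0.31, so the facing value was not particular to facing pairs. There too more regions were called higher in shoot than in root, 73 against 39 and 543 against 345. Regions that passed the count filter through the tissue where they are high had to differ, so these counts do not speak for all members. In whole tissue, fewer cells of a type and less RNA per cell cannot be told apart.

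Only a few pairs had both regions tested. Of 6 overlapping pairs, 3 had both regions higher in shoot, 2 had both higher in root and 1 had neither called. Of 13 facing pairs, 1 had both higher in shoot, 2 had both higher in root, 1 had opposite calls, 7 had 1 region called and 2 had none. Over all 427 neighbouring pairs tested, same-strand and divergent neighbours included, 44.0% had both regions called in 1 direction and 3.04% in opposite directions. With 1 opposite call among the members, lost without 3 of the 4 libraries in turn, nothing is read from that count.

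The pooled TPM allowed the same description in all pairs, without replicates and so without a test. Where the stronger region of an overlapping pair differed over 5-fold between tissues (on TPM + 0.5, which understates changes of low regions), the weaker region lay on the same side in 22 of 22 pairs. Of these, 9 were higher in shoot and 13 higher in root. The weaker region had 0 TPM in the other tissue in 8 of the 9 and in 7 of the 13. Their side thus rests on faint starts without a tag in 1 tissue. In facing pairs with such a stronger region, this was so in 29 of 53 higher in shoot and 28 of 52 higher in root. Facing pairs had such a stronger region in 105 cases and the weaker region on the same side in 86, divergent pairs in 56 of 87 and same-strand neighbours in 900 of 963. Over 5-fold differences were found in 22.4% of all regions. The log2 differences of the weaker and stronger regions correlated across pairs at r = 0.898 (Spearman 0.879, n = 46) in overlapping pairs and r = 0.551 (0.520, n = 372) in facing pairs. In facing pairs r was 0.757 within 100 bp, 0.587 at 101 to 500 bp, 0.337 at 501 to 1000 bp and 0.477 beyond. For divergent pairs r was 0.330, with 0.507 within 100 bp, 0.606 at 101 to 500 bp, 0.309 at 501 to 1000 bp and 0.198 beyond. From 101 to 1000 bp facing and divergent pairs thus had similar r. Beyond 1000 bp lay 189 divergent and 82 facing pairs, so values over all distances do not compare the 2 classes at like distance. For same-strand neighbours r was 0.750. These values describe pairs that share the same pooled libraries and in part the same regions, and the closest pairs also had the strongest stronger regions.

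**Figure D4:**
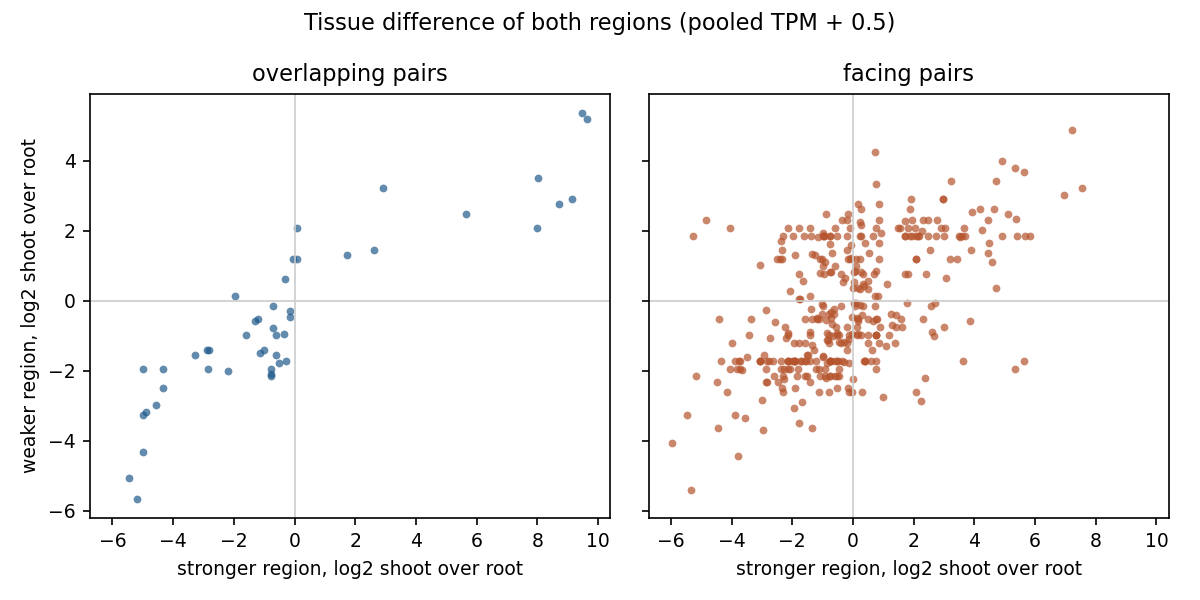
Log2 shoot over root of the weaker region (vertical) against that of the stronger region (horizontal), on pooled TPM + 0.5, for 46 overlapping pairs (left) and 372 facing pairs (right). Overlapping pairs run along a rising band with 43 of 46 on 1 side of 0 on both axes, while 254 of 372 facing pairs do so; horizontal rows of dots are faint regions of a few tags.

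The single libraries were set beside these values where counts were present. Among 17 covered overlapping pairs with such a stronger region, the libraries of the weaker region lay without overlap on the same side in 16 and overlapped in 1. Among 70 facing pairs they lay on the same side in 47, on the other side in 9 and overlapped in 14. Of all 15741 covered regions, 71.4% had no overlap between tissues in either direction. A region had to have enough pooled tags in a tissue to be listed, so tags in both its libraries were likely by the choice. The weaker region had tags in both libraries of its higher tissue in 29 of 29 covered overlapping pairs and in 227 of 248 facing pairs (91.5%). This was so in 93.1% of divergent pairs and 89.7% of same-strand neighbours. Over the 4 libraries the weaker region had a median of 11 tags in overlapping and 7 in facing pairs. In 14 facing pairs all its tags came from 1 library.

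The facing pairs with the strongest weaker regions differed in how both strands moved. On sequence 1 the plus-strand region at 52720455 to 52720562 held 5 and 0 tags in shoot and 144 and 153 in root, and the minus-strand region at 52720833 to 52720842, 271 bp away, held 0 and 0 in shoot and 31 and 42 in root. Both were called higher in root (adjusted p 3.21e-05 and 0.000242, edgeR), the minus-strand start at least 15.8-fold against the floor of 3 counts. These pairs were also picked by CPM, and this minus-strand start entered through root alone. Its tissue difference was thus nearly fixed by the choice, and its test does not support joint movement. On sequence 4 the minus strand gave 50% and 75% of the pair's tags in shoot and 42.2% and 56.5% in root, ranges that overlap. The plus-strand region at 52373164 to 52373294 held 20 and 10 tags in shoot and 26 and 20 in root, and the minus-strand base 52373427 held 20 and 30 in shoot and 19 and 26 in root. Neither was called (adjusted p 0.987 and 0.168, edgeR).

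In the other three of these facing pairs 1 strand was called. On sequence 7 the minus-strand region at 45316014 to 45316171 averaged 37.04 ± 0.85 CPM in shoot and 11.0 ± 3.8 CPM in root (SD, n = 2 each), a log2 difference of 1.72 ± 0.45 (SE; adjusted p 0.00841, edgeR). Its facing plus-strand region at 45315450 to 45315508 averaged 53.7 ± 3.8 CPM in shoot and 40.4 ± 6.8 CPM in root and was not called (adjusted p 0.348, edgeR). On sequence 9 the minus-strand region at 42950101 to 42950106 averaged 62.3 ± 3.6 CPM in shoot and 154.2 ± 8.1 CPM in root, called higher in root (log2 difference -1.31 ± 0.27, adjusted p 0.00218, edgeR). Its plus-strand partner at 42949560 to 42949585 averaged 25.4 ± 3.3 CPM in shoot and 18.0 ± 8.7 CPM in root, with an adjusted p of 0.426. On sequence 12 the plus-strand region at 2263054 to 2263102 held 156 and 133 tags in shoot and 139 and 134 in root, which scaled to a log2 difference of 0.72 ± 0.24 (adjusted p 0.0288, edgeR), and this call was lost in 6 of the 9 alternatives. The minus-strand base 2264214 held 17 and 10 tags in shoot and 16 and 17 in root (adjusted p 0.565, edgeR).

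The pair with opposite calls lay on sequence 1. Its plus-strand region at 59158632 to 59158658 held 4 and 0 tags in shoot and 81 and 160 in root, higher in root by a log2 difference of -5.27 ± 0.70 (adjusted p 0.000128, edgeR). Its minus-strand region at 59159737 to 59159786, 1079 bp away, held 13 and 10 tags in shoot and 2 and 4 in root, higher in shoot by 2.50 ± 0.54 (adjusted p 0.00281, edgeR). The minus strand thus gave 76.5% and 100% of the pair's tags in the shoot libraries and 2.41% and 2.44% in the root libraries. The minus-strand call rests on few tags: without shoot replicate 1, shoot replicate 2 or root replicate 1 it was lost, with adjusted p up to 0.122, while the plus-strand call held in all 9 alternatives.

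Whether the strand share of a pair shifted between tissues was tested directly. Library, strand and the tissue effect on strand were terms of 1 edgeR quasi-likelihood model of all 427 neighbouring pairs. In the 344 same-strand neighbours among them, the downstream was compared with the upstream region, so the share over all pairs is mostly not of strand shifts. None of 6 overlapping pairs was called (1 had an unadjusted p below 0.05, and DESeq2 called 0), which does not show that their strand shares were equal. In 4 of them 1 tissue had almost no tags of the weaker strand, and the fitted shifts of the sequence 1 and sequence 11 pairs were -1.74 ± 3.65 and -2.28 ± 5.44 (SE). The median absolute shift was 1.18 in overlapping and 1.45 in facing pairs. Of 13 facing pairs, 5 shifted, against 16.4% of all neighbouring pairs, 35 of 64 divergent pairs and 30 of 344 same-strand neighbours. The pair with opposite calls had the largest shift of the 5, a log2 change of 7.75 ± 0.90 (SE) toward the minus strand in shoot (adjusted p 0.000212, edgeR). In the 4 other pairs the minus-strand share was lower in shoot. On sequence 1 with plus-strand 54918450 to 54918453 and minus-strand 54920218 to 54920221 it was 81.4% and 81.4% in shoot and 96.7% and 93.8% in root. On sequence 1 with 2728594 to 2728599 and 2729917 to 2729930 it was 92.5% and 91.6% in shoot and 96.7% and 99.4% in root. In the sequence 9 pair named above it was 68.3% and 73.8% in shoot and 86.9% and 92.6% in root. The largest of their adjusted p was 0.0379. By DESeq2, 1 facing pair was called, and without any 1 library 0 or 1 were, and the shift of the pair with opposite calls itself missed the threshold without root replicate 1 or root replicate 2 (adjusted p 0.0984 and 0.0795, edgeR). The 3 other shifts with values given here were called in none of the 6 alternatives.

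**Figure D5:**
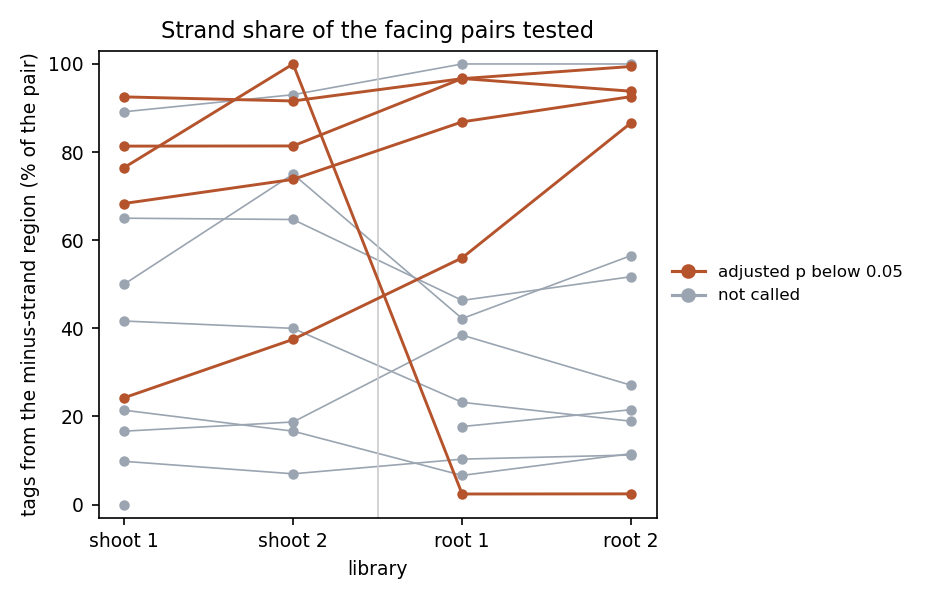
Share of a pair's tags that came from the minus-strand region (percent) in the 2 shoot and 2 root libraries, for the 13 facing pairs tested, with the 5 called pairs in the darker colour. The pair with opposite calls lies at 76.5% and 100% in the shoot libraries and at 2.41% and 2.44% in the root libraries, and 1 pair has no tag in shoot replicate 2 and no point there.

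Outside the part with counts, the pairs with the strongest weaker regions had pooled TPM alone. On sequence 20 the plus-strand region at 22931387 to 22931555 had 0.984 TPM in shoot and 49.7 TPM in root, and the minus-strand region at 22931292 to 22931655 around it had 1.32 TPM in shoot and 78.2 TPM in root. On sequence 13 the facing regions at 33647769 to 33647815 and 33648393 to 33648488 had 7.51 and 11.1 TPM in shoot and 16.9 and 20.3 TPM in root. On sequence 15 the facing regions at 34898526 to 34898586 and 34898681 to 34898688 had 50.9 and 8.74 TPM in shoot and 94.6 and 12.9 TPM in root. In each of these pairs both strands had the higher pooled value in root.

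Pairs in which each tissue listed another strand were faint. In 23 facing pairs 1 region was listed in shoot alone and the other in root alone, against 79 pairs with both regions in the same single list. The 23 were 22.5% of the 102 facing pairs with each region in a single list, against 27.7% in divergent pairs and 11.5% in same-strand neighbours. No overlapping pair was of the first kind. None of the 23 had both regions at 5 TPM, and their weaker regions had a median of 1.63 TPM. Whether the threshold of the lists set these cases was not tested. Over the 20 sequences, member regions made up from 1.89% of the regions on sequence 18 to 5.22% on sequence 1, and sequences 4, 7, 8 and 9 held no overlapping pair.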

How the data were processed

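The authors deposited a table of unnormalised tag counts by start base for each library, a table of 1 TPM value per tissue and base with replicates pooled, and tag cluster lists per tissue with TPM, per the file headers. Which aligner, cluster caller and build were used is not given here. The count table as read held 479104 of 711688 positions, ending on the minus strand of sequence 13 at 31697699, and 1 broken line was left out. TPM values summed to 735581 in shoot and 771467 in root and carry no replicates.

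Counts were summed per merged region (15741 covered) and tested with edgeR 4.0.16 (quasi-likelihood test, TMM scaling, filterByExpr, tissue as only term, Benjamini-Hochberg at 0.05 over all 7183 regions tested). The strand model took 8 columns per pair with library, strand and strand by tissue terms. For same-strand neighbours the downstream and upstream regions took the place of the strands. Each SE of an edgeR log2 value was back-calculated, as its absolute value over the square root of the F statistic of its test. DESeq2 1.42.0, RLE and total-tag scaling, no filter, a replicate block and each library left out were alternatives. Scripts were tested on simulated data. Named pairs were the 5 overlapping and 5 facing pairs with the highest CPM of the weaker region, pairs with opposite calls, the largest strand shifts with at least 50 tags per tissue and no overlap of shares, the 3 strongest pairs outside the counts and those at the limit. The rule for shifts toward the minus strand in shoot took no pair, and 1 of the 5 called facing pairs had too few tags to be named. Members and lists were chosen with earlier results of these data known. Same-numbered libraries of the tissues did not deviate together (r = -0.052 across regions).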

Additional observations from a re-analysis of the deposited data

Results flagged for a closer look

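Antisense tags too few to form a cluster, which entered none of the tests, were present inside strong regions. The 1514 covered regions of 100 TPM or more that were not the stronger region of an overlapping pair held 161 antisense tags in all. Whether these exceed a background of tags assigned to the wrong strand was not tested. They were 37 and 32 tags in the shoot libraries and 49 and 43 in the root libraries. In the pooled table, with the stronger regions of overlapping pairs left out, 9.93% of regions of 500 TPM or more had an antisense tag in their span, against 3.81% at 100 to 500 TPM. The median width of all regions at these levels was 102 and 75 bp. The part of width and level in this was not tested.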

How the results depend on the processing

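Pair counts, member calls and strand shifts were recomputed under the alternatives, and 81 of 108 recomputed values stayed within the limits set for a change. Counts were taken as kept up to 1.5 times, and the 81 include opposite calls and shifts of overlapping pairs that stayed at 0. In facing pairs the number of strand shifts and the correlation of tissue differences moved beyond the limits in every alternative. The median ratio of the stronger to the weaker region was 44.0 in overlapping and 3.16 in facing pairs with both regions at 5 TPM or more. With no count filter, which tests many more faint regions, facing members called were 95 higher in shoot and 54 in root, pairs called in the same direction were 12 overlapping and 22 facing, facing pairs with opposite calls were 4, and 1 facing pair shifted. DESeq2 also called 1 facing shift. With 1 library left out, facing pairs called in the same direction ran from 3 to 7, opposite calls from 0 to 1 and facing shifts from 0 to 1. The correlation of tissue differences was 0.997 for the 6 tested overlapping pairs (0.973 to 0.989 with 1 library left out) and 0.672 for the 13 facing pairs (0.468 to 0.727), where Spearman's value was 0.313. In 4 of the 6 overlapping pairs the weaker region had almost no tags in 1 tissue and passed the count filter through the other. Its log2 difference there was large by the choice, so the 0.997 rests on few pairs at the extremes. On pooled TPM of all pairs the correlation was 0.898 and 0.551, and with a pseudocount of 2 it was 0.840 and 0.544. The replicate block gave 11 overlapping members higher in shoot and 10 in root, and 54 and 29 facing members, with no change beyond 1.5 times. The libraries share only a number. Scaling to total tags moved the median of all tested regions from 0.06 to -0.32 and gave 49 facing members higher in shoot and 43 in root, against 57 and 34. Of 330 recomputed values of named regions and pairs, 40 lost a call, 4 gained a call and 7 changed sign, none of them called in either fit. With 1 library left out, the strand shift ran from -3.63 to 2.03 in the sequence 1 pair at 52720455 (all libraries -2.69), from -4.62 to 1.03 in the sequence 13 pair at 1668112 (-1.31) and from -1.23 to 0.29 in the sequence 5 pair at 37959816 (-0.36), and the log2 difference of sequence 4 at 52373164 ran from -0.31 to 0.24 (-0.01). With total tags, that of sequence 12 at 2264214 was -0.059 against 0.32. Causes of these changes were not tested. The count filter left 6 overlapping and 13 facing weaker regions to test.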
